A study of Mus musculus with 12 samples.

Results

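Abracl, Shisa6, Rimbp2, Smim20, Itpripl2, Lnx1, Kctd4, Plxdc2, Tubg2 and Ptprt, 10 genes switched on in libraries labelled Chd5-/-, had next to no reads in wild-type neural stem cells, Rimbp2 at 48 h excepted, and were expressed in cells labelled Chd5-/- at 3 h or 48 h of differentiation. These 10 of the 54356 genes in the tables were chosen on that difference in level, so the genotype difference of each is given below as a description with no test. Primary neural stem cells of the mouse were sequenced in 12 RNA libraries, with 3 per genotype and time: wild type (WT) and Chd5-/-, collected after 3 h and after 48 h of differentiation. Before that all cells were grown with the growth factors EGF and FGF2, and differentiation began when a neurobasal medium with B-27 was given in its place. The labels name no strain, age, animal or culture behind a replicate number and leave the deleted stretch of Chd5 unnamed, so p-values measure the spread between these libraries, which may be technical. In whole-culture RNA, a change in the number of cells of a type and a change in RNA per cell cannot be told apart.

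CHD5 is a chromatin remodelling enzyme of the NuRD complex that is found mainly in the nervous system, where it is known for regulating genes of neuronal differentiation. The 10 genes belong to no single pathway. Shisa6 and Rimbp2 encode synaptic proteins, Ptprt, Plxdc2 and Itpripl2 encode proteins of the cell surface or membrane, Lnx1 encodes a ubiquitin ligase, Kctd4 a BTB-domain protein, Tubg2 and Abracl cytoskeletal proteins, and Smim20 a mitochondrial protein.

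Total estimated reads ran from 14.11 to 18.71 M per library. Chd5 itself had 3.54, 3.93 and 4.66 CPM (reads scaled to the library total, TMM-adjusted) in the 3 h libraries of wild type, and 5.25, 6.31 and 7.06 CPM in those of Chd5-/-. The 48 h libraries of wild type gave 6.59, 7.15 and 5.28 CPM for it, those of Chd5-/- 5.7, 3.34 and 2.96. Chd5 reads were therefore not lost in the libraries labelled Chd5-/-, and with the deleted part unknown these values do not test the label; every direction below rests on the labels. In all, 3 libraries stood apart. Replicate 1 of wild type at 3 h had 13.2% of its reads on ribosomal protein genes, against 3.02% to 3.72% in the other 11. Replicate 2 of both genotypes at 48 h had a summed level of cell cycle genes of 2211 CPM in wild type and 2044 CPM in Chd5-/-, against 126 to 133 CPM in the other 4 libraries of 48 h. Neural stem cell markers (Nes, Sox2 and 8 others) summed to 4269 to 9102 CPM in every library. Summed neuron markers were 239 to 647 CPM in wild type and 1204 to 1312 CPM in Chd5-/- at 3 h, and 545 to 840 and 720 to 1221 CPM at 48 h. None of the 7 of 10 neuron markers tested passed between genotypes at either time. The 8 astrocyte markers summed to 1314 to 1630 CPM in wild type and 621 to 653 CPM in Chd5-/- at 3 h, where 1 was higher and 3 lower, and to 3843 to 4781 and 2060 to 5349 CPM at 48 h, where 1 was lower; none of them was at 0. The 10 fibroblast and smooth muscle markers summed to 17 to 17.1 CPM in wild type and 573 to 607 CPM in Chd5-/- at 3 h, of which Acta2, smooth muscle actin, held 579 ± 16.6 CPM (SD, n = 3), while Pdgfrb and Lum had no reads there. Of the 5 of these markers tested, 2 were higher at 3 h, Acta2 and Tagln (edgeR's quasi-likelihood test with Benjamini-Hochberg adjustment over 16043 genes, adjusted p = 0.000827 and 0.00633), and 3 were lower, Col1a1, Col3a1 and Twist1. The calls of Acta2, Tagln and Twist1 held without any 1 library, though Tagln did not pass with coding transcripts alone (adjusted p = 0.0633), and those of Col1a1 and Col3a1 did not, with adjusted p of up to 0.199 and 0.0917. Summed microglia and endothelial markers did not exceed 14.4 and 11.1 CPM in any library. The part of these differences in the levels of the 10 genes was not tested.

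At 3 h the 3 libraries labelled Chd5-/- lay above the 3 of wild type for 8 of the 10 genes, and at 48 h for all 10. Over all 16043 genes tested, 23.9% lay above in this way at 3 h and 12.3% at 48 h; since the genes were picked on this contrast, nothing is read from the counts. All 10 passed the filter on low counts, which their Chd5-/- libraries decided except for Rimbp2, whose wild-type reads at 48 h also met it. Taking a wild-type mean under 1 CPM and a Chd5-/- mean over 5 CPM as the pattern, 5 of them met it at 3 h (Abracl, Shisa6, Rimbp2, Smim20 and Itpripl2) and 6 at 48 h (Smim20, Lnx1, Kctd4, Plxdc2, Tubg2 and Ptprt). Across all tested genes 75 (0.467%) met it at 3 h and 53 (0.33%) at 48 h, and 16 met it at both times. At 48 h Tubg2 was just inside with 5.26 CPM in Chd5-/-. The nearest of the 10 below that bound, Shisa6 and Itpripl2, were well short of it at 2.58 and 2.55 CPM there. Rimbp2 was outside at 48 h for its 3.21 CPM in wild type.

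**Figure D1:**
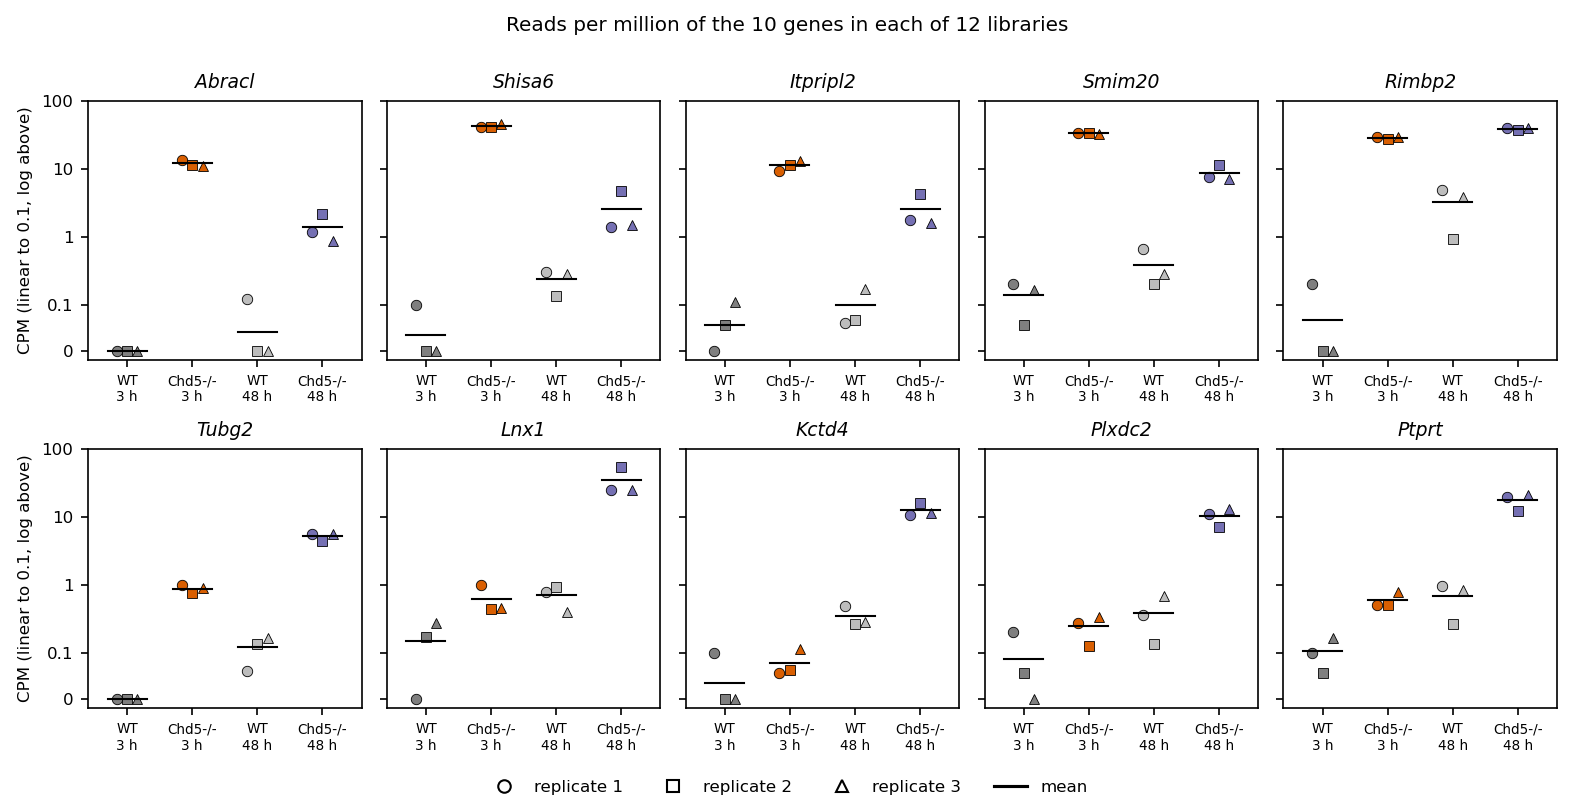
CPM (y axis, linear to 0.1 and logarithmic above) of the 10 genes in wild type (WT) and Chd5-/- at 3 h and 48 h; each point is a library, its shape the replicate number, and the line the mean of 3. Abracl, Shisa6, Itpripl2 and Smim20 stood highest in Chd5-/- at 3 h, Rimbp2 was high in Chd5-/- at both times, and the 5 genes of the lower row stood highest in Chd5-/- at 48 h.

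Both synaptic genes were high in Chd5-/- at 3 h, and they parted at 48 h. Shisa6 (chromosome 11, 66211725 to 66525964, minus strand, GRCm38) encodes an auxiliary subunit that holds AMPA-type glutamate receptors at the synapse. It had 1, 0 and 0 reads in wild type at 3 h and 725, 659 and 787 in Chd5-/-. Its mean there was 42.3 ± 2.22 CPM, a ratio to wild type of 1924 with a 95% exact interval of 345 to 76010. Ratios and intervals here are of the summed reads per library size, and cover counting error only. By 48 h it had 5, 2 and 5 reads in wild type and 23, 72 and 24 in Chd5-/-. The groups did not overlap at either time, and replicate 2 was the highest of Chd5-/- at 48 h. The direction at 48 h depended on transcript length: with an offset for effective length the log2 difference was -0.30, against 3.36 without it. That offset weights the lengths of a gene's transcripts by TPM, a measure scaled for transcript length, in which reads on a short transcript weigh heavily. Shisa6-203 has only 285 bases: on it 2 wild-type libraries had 0.963 and 0.994 estimated reads and the Chd5-/- libraries none.

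Rimbp2 (chromosome 5, 128757791 to 128953486, minus strand) encodes a scaffold of the presynaptic active zone that links calcium channels to the RIM proteins. Wild type had 2, 0 and 0 reads at 3 h and 80, 14 and 67 at 48 h. In Chd5-/- the counts were 530, 433 and 515 at 3 h and 634, 549 and 625 at 48 h. Rimbp2 was the only one of the 10 with over 1 CPM on average in a wild-type group, 3.21 ± 2.04 CPM at 48 h, and replicate 2 held the fewest of those reads. Its Chd5-/- excess went from a ratio of 655 (95% exact interval 181 to 5412) at 3 h to 11.7 (9.93 to 13.8) at 48 h, beside the higher wild-type level of the later time. Its Chd5-/- libraries were closely alike, with an SD of 4.3% of the mean at 3 h and 4.04% at 48 h.

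Of the 3 genes of the cell surface or membrane, Ptprt and Plxdc2 were high in Chd5-/- at 48 h and Itpripl2 at 3 h. Ptprt (chromosome 2, 161521990 to 162661147, minus strand) encodes a receptor tyrosine phosphatase that binds its own kind between cells and is found mainly in brain. Its reads numbered 1, 1 and 3 in wild type and 9, 8 and 14 in Chd5-/- at 3 h, then 16, 4 and 15 in wild type and 321, 185 and 335 in Chd5-/- at 48 h. The libraries of the genotypes were apart at both times, by a ratio of 5.49 (95% exact interval 2.12 to 18.1) at 3 h and 25 (17.8 to 36.1) at 48 h, where Chd5-/- stood at 17.8 ± 4.75 CPM. Plxdc2 (chromosome 2, 16356304 to 16755839, plus strand) encodes a membrane protein with a plexin domain that has been described as a receptor of pigment epithelium-derived factor. It had 2, 1 and 0 reads in wild type and 5, 2 and 6 in Chd5-/- at 3 h, levels that overlapped in CPM, and 6, 2 and 12 against 177, 106 and 204 at 48 h. Only the later time set the groups apart, by a ratio of 25.3 (95% exact interval 16.2 to 41.8), with Chd5-/- at 10.3 ± 2.95 CPM. Both genes shared an order in Chd5-/- at 48 h, with replicate 2 lowest. Itpripl2 (chromosome 7, 118485111 to 118491975, minus strand), a relative of the gene for the inositol 1,4,5-trisphosphate receptor-interacting protein, had 0, 1 and 2 reads in wild type and 168, 181 and 228 in Chd5-/- at 3 h. At 48 h it had 1, 1 and 3 reads in wild type and 29, 64 and 25 in Chd5-/-. Here replicate 2 was the highest, and no Chd5-/- library came as low as wild type at either time. The Chd5-/- mean was 11.3 ± 1.8 CPM at 3 h, a ratio of 170 (95% exact interval 58 to 829), and 2.55 ± 1.5 CPM at 48 h, a ratio of 24.5 (10.2 to 76.9).

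Lnx1 and Kctd4 were both high in Chd5-/- at 48 h. Lnx1 (chromosome 5, 74592447 to 74702912, minus strand) encodes an E3 ubiquitin ligase known for binding NUMB, an inhibitor of Notch signalling, and marking it for degradation. Wild type had 0, 3 and 5 reads at 3 h and 13, 14 and 7 at 48 h, and Chd5-/- had 18, 7 and 8 at 3 h and 405, 810 and 397 at 48 h. Replicate 2 of Chd5-/- at 48 h held more of these reads than replicates 1 and 3 together. The mean of that group was 34.7 ± 16.8 CPM, a ratio to wild type of 49.3 (95% exact interval 35.1 to 71.4). The Chd5-/- libraries lay above those of wild type at both times. Kctd4 (chromosome 14, 75955009 to 75966206, plus strand) had 1, 0 and 0 reads in wild type at 3 h and 1, 1 and 2 in Chd5-/-, which overlapped. Its reads at 48 h numbered 8, 4 and 5 in wild type and 171, 242 and 181 in Chd5-/-, or 12.7 ± 3 CPM, a ratio to wild type of 36.3 (95% exact interval 22.5 to 62.7). Both genes lie across a gene of the opposite strand, Lnx1 across Fip1l1 and Kctd4 across Gtf2f2. Fip1l1 stood at 99 to 101 CPM in wild type and 129 to 136 CPM in Chd5-/- at 48 h. Gtf2f2 had 17.2, 27.5 and 17.7 CPM in wild type, and 23, 52.5 and 21.8 CPM in Chd5-/-. Neither passed the test there (edgeR adjusted p = 0.342 and 0.729), though without the 3 libraries that stood apart both did (adjusted p = 2.06e-06 and 0.000457), with log2 differences of 0.38 for each. In that fit 47.2% of all genes passed at 48 h. Fip1l1 also passed in DESeq2 (adjusted p = 0.000289) and without replicate 1 of wild type at 3 h (edgeR adjusted p = 0.0146), while Gtf2f2 passed in no other fit. No strand setting of the counting was stated, so the part of reads from the opposite strand in Lnx1 and Kctd4 was not tested.

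Tubg2 and Abracl encode cytoskeletal proteins, and neither had a read in any wild-type library at 3 h. Tubg2 (chromosome 11, 101155907 to 101161787, plus strand) encodes the brain form of gamma-tubulin, the protein from which microtubules are nucleated. It had 18, 12 and 16 reads in Chd5-/- at 3 h, at least 13.5-fold above a floor of 3 counts over the wild-type group. At 48 h the counts were 1, 2 and 3 in wild type and 91, 67 and 90 in Chd5-/-, a mean of 5.26 ± 0.683 CPM and a ratio of 42.9 (95% exact interval 19.5 to 118). The genotypes did not overlap at either time, and the Chd5-/- libraries of 48 h had an SD of 13% of the mean. Its paralogue Tubg1 lies 29.5 kb away and is nearly identical in sequence, so the split of reads between them is uncertain. Tubg1 stood at 110 ± 3.42 CPM in Chd5-/- and 156 ± 86 in wild type at 3 h, and at 72.6 ± 35.2 and 52.8 ± 20.8 CPM at 48 h, with no call in either contrast (edgeR adjusted p = 0.509 and 0.88). Its direction changed with the libraries used. The log2 difference at 3 h was -0.51, and 0.05 without replicate 1 of wild type. At 48 h it was 0.46, and -0.02 without replicate 2 of Chd5-/-, a fit that keeps replicate 2 of wild type. Without the 3 libraries that stood apart it was 0.37 at 48 h (edgeR adjusted p = 8.89e-05), where 47.2% of all genes passed. Abracl (chromosome 10, 18011260 to 18023288, minus strand) encodes a small protein of the Costars family, known from Dictyostelium for its role in actin turnover. Its reads in Chd5-/- numbered 246, 181 and 195 at 3 h, a mean of 12.1 ± 1.44 CPM and at least 183-fold above the floor. At 48 h there were 2, 0 and 0 reads in wild type and 19, 32 and 14 in Chd5-/-. The libraries of the genotypes remained apart, with a ratio of 33.8 (95% exact interval 8.98 to 285).

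Smim20 (chromosome 5, 53267083 to 53278540, plus strand) encodes a small protein of the inner mitochondrial membrane that takes part in assembling cytochrome c oxidase, respiratory complex IV. It had 2, 1 and 3 reads in wild type and 605, 527 and 574 in Chd5-/- at 3 h, then 11, 3 and 5 in wild type and 122, 169 and 112 in Chd5-/- at 48 h. It was the only one of the 10 to meet the pattern at both times. Its Chd5-/- mean was 33.2 ± 0.573 CPM at 3 h, with an SD of 1.72% of the mean and a ratio to wild type of 252 (95% exact interval 116 to 687), and 8.63 ± 2.31 CPM at 48 h, a ratio of 22 (13.9 to 37).

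Per unit of length, the order differed from that of the reads. Levels between genes were compared in TPM, a measure scaled for transcript length and library total, over transcripts of at least 500 bases. In Chd5-/- at 3 h Smim20 led with 24.2 TPM, above 81.3% of the tested genes, followed by Abracl at 7.17, Rimbp2 at 4.77, Shisa6 at 3.41 and Itpripl2 at 1.01 TPM, with no overlap between neighbours in this order. Tubg2 came next at 0.316 TPM, and the 4 others were at 0.0146 to 0.171 TPM. At 48 h Lnx1 led with 12.2 TPM and overlapped Smim20 at 7.87 TPM, but not Rimbp2 at 7.74 TPM (9.23 to 18.2 against 6.01 to 9.2 TPM), a level above 52.3% of the tested genes. Smim20 and Rimbp2 overlapped. Plxdc2 at 2.51 TPM overlapped both Kctd4 at 3.29 and Tubg2 at 2.46 TPM. Overlapping pairs were Ptprt at 1.14 and Abracl at 0.937 TPM and, lowest, Shisa6 at 0.304 and Itpripl2 at 0.293 TPM. This order depended on the limit of 500 bases. Over all transcripts Smim20 (220 TPM), Abracl (84.8 TPM) and Shisa6 (30.6 TPM) stood above Rimbp2 (6.87 TPM) at 3 h, and Smim20 (69.9 TPM) and Abracl (13.1 TPM) above Lnx1 at 48 h, since estimated reads on short transcripts weigh heavily in TPM. In wild type, over transcripts of at least 500 bases, no mean was above 0.0807 TPM at 3 h, and the highest at 48 h was Rimbp2 with 0.414 TPM. Over all transcripts the highest at 48 h was Smim20 with 2.84 TPM.

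From 3 h to 48 h the 10 genes divided in the libraries labelled Chd5-/-, with all 3 libraries of 48 h above those of 3 h for 6 genes and below them for 4. The levels in Chd5-/- at these times are what the genes were chosen on, so the differences are described with no test. Of all tested genes, 32.2% lay above in this way and 32.4% below, and nothing is read from the counts. Kctd4 differed the most, by 7.22 ± 0.64 on the log2 scale (edgeR estimate ± SE), followed by Lnx1 at 5.75 ± 0.64, Plxdc2 at 5.32 ± 0.72 and Ptprt at 4.87 ± 0.51. Tubg2, already present at 3 h, was 2.55 ± 0.37 higher at 48 h. The 4 genes lower at 48 h were Shisa6 at -4.03 ± 0.56, Abracl at -3.11 ± 0.59, Itpripl2 at -2.14 ± 0.49 and Smim20 at -1.94 ± 0.38. Rimbp2 was 0.42 ± 0.54 higher, a value smaller than its SE, and with the length offset it was -0.06.

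In wild type the 48 h libraries lay above those of 3 h for 6 of the 10 genes, against 20.9% of all genes, and below for none, against 16.8%. These levels were near 0 by choice, that of Rimbp2 at 48 h excepted, and rest on few reads, so they too are given with no test. Rimbp2 went from 2 to 161 reads over the group, a ratio of 75 with a 95% exact interval of 20.4 to 624. Ptprt went from 5 to 35 reads, a ratio of 6.52 (2.54 to 21.3), and Lnx1 from 8 to 34, a ratio of 3.96 (1.8 to 9.9). Kctd4 went from 1 to 17 reads, a ratio of 15.8 (2.48 to 662). Tubg2 went from 0 to 6 reads, 1.85-fold above the floor of 3 counts, a value that leaves out the counting error of the 6 reads. Shisa6 was the other of the 6, with 1 read at 3 h and 12 at 48 h, while in Chd5-/- all of its 48 h libraries lay below those of 3 h.

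**Figure D2:**
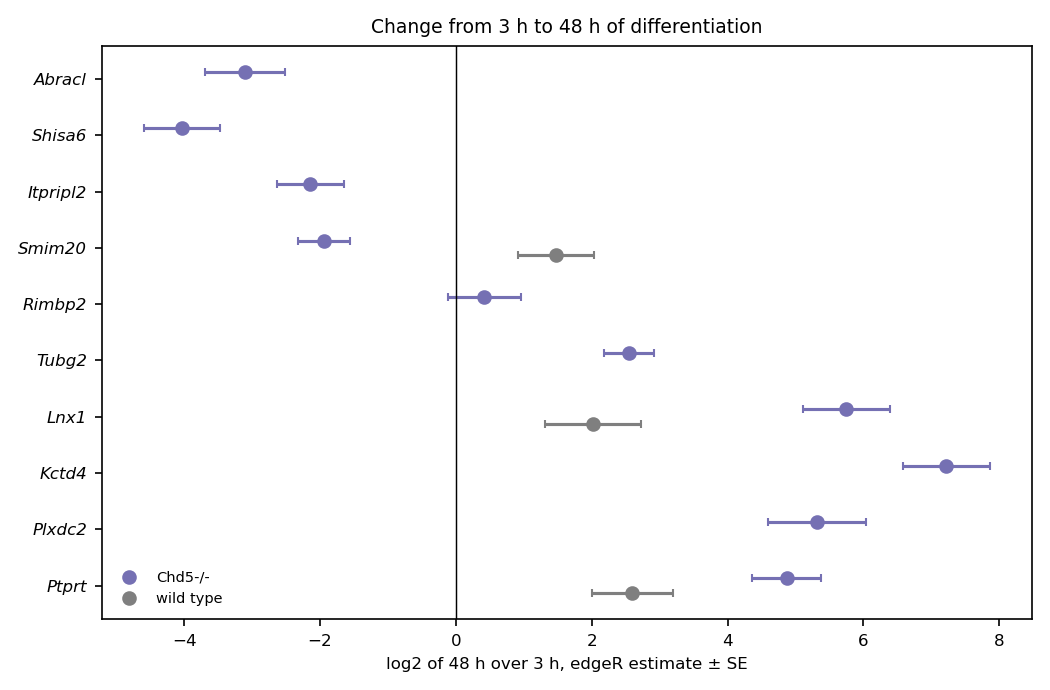
Log2 of the level at 48 h over that at 3 h (x axis; edgeR estimate with its standard error, no test) for the 10 genes in Chd5-/-, and in wild type for the 3 genes with more than 3 reads over the group at 3 h. In Chd5-/- Abracl, Shisa6, Itpripl2 and Smim20 lay to the left of 0 and the others to the right, and the wild-type values of Smim20, Lnx1 and Ptprt lay to the right.

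The genes also divided by how replicate 2, the library still rich in cell cycle transcripts, compared with replicates 1 and 3 in Chd5-/- at 48 h. It was above the mean of the other two for Shisa6 (3.27-fold), Itpripl2 (2.53-fold), Lnx1 (2.16-fold), Abracl (2.07-fold), Smim20 (1.54-fold) and Kctd4 (1.47-fold). It was below it for Rimbp2, Tubg2, Ptprt and Plxdc2, with ratios of 0.932, 0.791, 0.602 and 0.594. All 4 genes that were lower at 48 h than at 3 h were thus higher in this library, and of the 5 genes high at 48 h alone Lnx1 and Kctd4 were higher and Tubg2, Ptprt and Plxdc2 lower. These are values of a single library per group, and the part of the cell cycle in them was not tested. In the matching wild-type library, on 0 to 14 reads a gene, Lnx1 was also higher, at a ratio of 1.58, and Rimbp2, Ptprt and Plxdc2 were lower, at 0.217, 0.295 and 0.257. The other 6 went the other way than in Chd5-/-: Shisa6, Itpripl2, Smim20 and Kctd4 were lower, at 0.458, 0.583, 0.423 and 0.698, Abracl had no read, and Tubg2 was higher, at 1.17.

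Over the 12 libraries the 4 genes high at 3 h followed each other closely, with Pearson correlations of log2(CPM + 1) from 0.94 to 1.00, and the 5 genes high at 48 h did so at 0.92 to 0.99. The correlations describe 4 groups rather than 12 independent levels. Among all other tested genes, Pxdc1 was the most similar to both Shisa6 (Pearson r = 0.9966) and Abracl (0.9907), with 4.15 CPM in Chd5-/- at 3 h and 0.037 CPM in wild type. Ank3, the gene of ankyrin-G at the axon initial segment, was the most similar to Smim20 (0.9983), with 96.8 CPM at 3 h and 19.8 CPM at 48 h in Chd5-/-. Efna1, an ephrin ligand gene, was the most similar to Itpripl2 (0.9918), and Itga3, an integrin subunit gene, to Rimbp2 (0.9945). Hoxd8, a homeobox gene with 1.15 CPM in Chd5-/- at 48 h, was the most similar to Lnx1 (0.9876), and Mapk15 to Tubg2 (0.9928). Lims2 was the most similar to Plxdc2 (0.9935). Gpr17, a receptor gene of the oligodendrocyte lineage, was the most similar to Ptprt (0.9912), with 34.5 ± 0.329 CPM in Chd5-/- and 0.752 ± 0.219 CPM in wild type at 48 h. Gpr17 and Pdgfra were the 2 of 8 tested oligodendrocyte lineage markers that passed between genotypes at 48 h, both higher in Chd5-/-, while the summed level of the list overlapped, at 1569 to 2298 CPM against 1751 to 2187 CPM in wild type, with Mog at 0 in both.

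The transcripts that carried the reads differed in how clearly they named a start. Itpripl2, Kctd4 and Tubg2 have a single annotated transcript. Shisa6 reads fell for 95.1% on Shisa6-202 at 3 h, Smim20 reads for 84.9% on the coding Smim20-201, and Ptprt reads at 48 h for 87% on Ptprt-204. Plxdc2 at 48 h was carried by Plxdc2-201 for 69.7%. Abracl at 3 h was divided between the coding Abracl-201 (52.7%), the 300-base processed transcript Abracl-202 (29.3%) and the 275-base Abracl-205 (17.9%). Shares of a gene are Salmon's estimates, and transcripts that overlap share reads.

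For Lnx1 and Rimbp2 the reads lay largely on transcripts that begin far inside the gene. In Chd5-/- at 48 h, 94.9% of Lnx1 reads (86.3% to 99.6% by library) were assigned to Lnx1-205, which begins 25.1 kb downstream of the most upstream annotated start. Wild type at 48 h used the same start region, on few reads: 79.4% of its 34 reads were on Lnx1-205 and the other 20.6% on Lnx1-209, which begins 25.3 kb downstream. By library each of these shares ran from 0 to 100%. At 3 h, 85.2% of the 8 wild-type reads were on Lnx1-209 and 14.8% on Lnx1-208, which begins 79.4 kb downstream. Rimbp2 reads were spread mainly over 2 start regions. At 3 h in Chd5-/-, 43.2% were on Rimbp2-204 and 19.7% on Rimbp2-205, which begin 133.5 and 133.4 kb downstream, and 31.6% on Rimbp2-207 from the gene's first base. At 48 h the shares were 33.9%, 43% and 18.5%. Rimbp2-206, which begins 76.4 kb downstream, held 4.44% at 3 h and 4.29% at 48 h. Rimbp2-207 ranged from 28.3% to 36% at 3 h and from 13.6% to 24.5% at 48 h by library, without overlap.

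**Figure D3:**
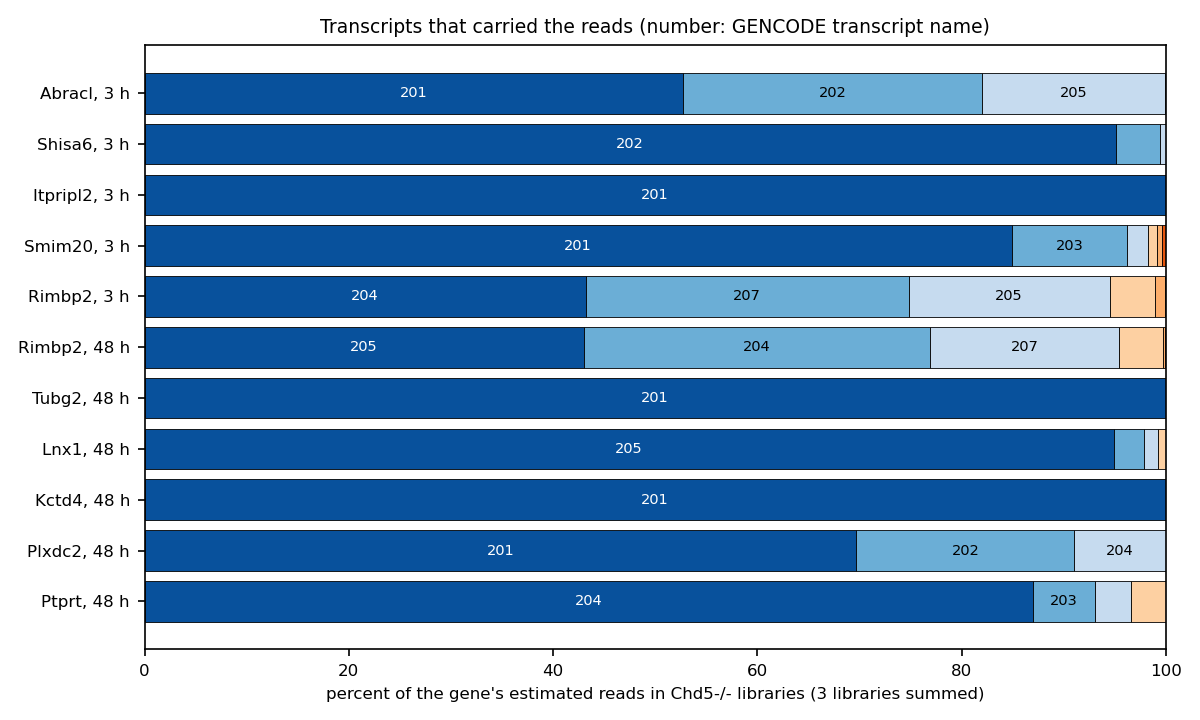
Share of each gene's estimated reads (x axis, percent, 3 Chd5-/- libraries summed) on its annotated transcripts, at the time where the gene was high and for Rimbp2 at both times; numbers are the GENCODE transcript names. Shisa6, Itpripl2, Tubg2, Lnx1 and Kctd4 each had at least 94.9% on 1 transcript, while Abracl, Rimbp2 and Plxdc2 were divided mainly among 3.

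RefSeq promoter windows, running from 250 bases before to 50 after a start on build GRCm38.p6, were at hand for 7 of the 10 genes. For Lnx1 and Rimbp2 the window belongs to the upstream start, and only 1.69% and 25% of the Chd5-/- reads were on transcripts that begin within 500 bases of it. For 5 genes the window covers the start of most of the reads, and these are shown: 70% to 100% of the Chd5-/- reads were on transcripts that begin within 500 bases of the RefSeq start. The capitals mark matches, on either strand, to the motifs searched: the TATA box, searched as TATAAA; the CCAAT box, by those letters; the GC box, searched as GGGCGG; the E-box CAGCTG, which proneural factors bind; the E-box CACGTG, which MYC and MAX bind; and the cyclic AMP response element TGACGTCA. The motifs do not overlap each other in these windows, other than a pair of GC boxes in Ptprt.
Abracl, chr10:18023203-18023502, minus strand: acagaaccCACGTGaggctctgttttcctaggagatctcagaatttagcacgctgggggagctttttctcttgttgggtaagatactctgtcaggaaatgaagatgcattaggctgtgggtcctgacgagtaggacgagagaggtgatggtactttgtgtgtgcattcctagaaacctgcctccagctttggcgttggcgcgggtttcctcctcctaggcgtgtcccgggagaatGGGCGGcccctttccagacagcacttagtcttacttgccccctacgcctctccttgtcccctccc
Smim20, chr5:53266856-53267155, plus strand: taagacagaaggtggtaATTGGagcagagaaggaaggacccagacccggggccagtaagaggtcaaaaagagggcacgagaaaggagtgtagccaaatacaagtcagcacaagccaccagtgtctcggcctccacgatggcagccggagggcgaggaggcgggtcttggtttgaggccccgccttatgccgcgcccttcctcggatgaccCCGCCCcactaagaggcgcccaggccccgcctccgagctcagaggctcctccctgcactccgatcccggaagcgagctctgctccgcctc
Itpripl2, chr7:118491926-118492225, minus strand: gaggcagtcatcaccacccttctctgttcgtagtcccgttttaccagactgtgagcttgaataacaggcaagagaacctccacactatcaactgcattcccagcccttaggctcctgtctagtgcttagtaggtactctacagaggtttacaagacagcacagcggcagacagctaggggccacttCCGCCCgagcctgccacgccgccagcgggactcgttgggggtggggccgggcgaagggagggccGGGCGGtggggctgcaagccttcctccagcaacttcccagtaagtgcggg
Tubg2, chr11:101155634-101155933, plus strand: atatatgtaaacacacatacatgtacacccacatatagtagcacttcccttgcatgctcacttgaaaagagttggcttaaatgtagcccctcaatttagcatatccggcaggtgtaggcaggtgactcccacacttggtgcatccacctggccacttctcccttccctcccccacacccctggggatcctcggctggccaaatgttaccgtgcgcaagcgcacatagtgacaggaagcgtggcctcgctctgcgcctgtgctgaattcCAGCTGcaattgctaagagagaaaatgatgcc
Ptprt, chr2:162661098-162661397, minus strand: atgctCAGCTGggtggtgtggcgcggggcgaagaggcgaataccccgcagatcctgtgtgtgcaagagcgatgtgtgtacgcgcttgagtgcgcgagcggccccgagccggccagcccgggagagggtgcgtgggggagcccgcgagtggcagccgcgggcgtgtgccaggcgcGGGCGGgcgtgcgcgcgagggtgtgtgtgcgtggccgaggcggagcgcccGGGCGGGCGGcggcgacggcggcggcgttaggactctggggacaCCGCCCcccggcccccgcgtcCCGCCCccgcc

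The 3 windows shown of genes high at 3 h each held a GC box, as do 35.7% of the 32851 windows of the table, and no TATA box, which 13.6% of windows hold. Abracl also held the CACGTG E-box (7.15% of windows), Smim20 a CCAAT box (37.4%), and Itpripl2 2 GC boxes. Of the genes high at 48 h, Tubg2 and Ptprt held the CAGCTG E-box, found in 16.3% of windows. A second window of Abracl, not shown, held a GC box but not CACGTG. The same 70% of Abracl reads in Chd5-/- were on transcripts that begin within 500 bases of its start. The windows of Rimbp2 and Lnx1, not shown and at upstream starts, went otherwise. That of Rimbp2, high at both times, held the CAGCTG E-box and no GC box. That of Lnx1, high at 48 h, held a GC box, a CCAAT box and the CACGTG E-box, but not CAGCTG. Ptprt had 5 GC boxes and 46 CpG dinucleotides in 300 bases, a GC content of 77.3% that is above that of 97.8% of windows. Tubg2, with 8 CpG and 52% GC, was near the median of all windows, 52.7% GC. No window of the 7 genes held a TATA box or the cyclic AMP response element, and no motif was shared by all 5 sequences.

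The 10 genes lie on 6 chromosomes, with 3 on chromosome 5 and 2 each on chromosomes 2 and 11, and none on chromosome 4, which carries Chd5. No gene of the 10 lies within 500 kb of another. Of the 99 tested genes within 500 kb of any of them, 4 were higher and 2 lower in Chd5-/- at 3 h, or 6.06% against 6.71% of all genes (3.24% higher, 3.48% lower). At 48 h 4 were higher and 1 lower, or 5.05% against 2.74% (1.53% higher, 1.21% lower). The median neighbour differed by -0.13 at 3 h and 0.02 at 48 h on the log2 scale, beside -0.02 for all genes at both times. Without the 3 libraries that stood apart, 52 of 98 neighbours passed at 3 h and 57 of 98 at 48 h, against 52.5% and 47.2% of all genes in those fits. With the replicate number as a block within the 48 h libraries 8 of 96 passed, against 8.82% of all genes.

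Among these neighbours, 3 genes near Rimbp2 and Smim20 were likewise near 0 in wild type and higher in Chd5-/- at 3 h, and their calls there held without any 1 library. Gm45495, a long non-coding RNA gene 3.3 kb downstream of Smim20 on the same strand, had 1, 0 and 1 reads in wild type and 68, 57 and 70 in Chd5-/- at 3 h (edgeR adjusted p = 0.0003), then 1, 1 and 3 against 42, 27 and 36 at 48 h (adjusted p = 0.00225). Its levels separated the genotypes at both times as those of Smim20 did. The long non-coding RNA gene 5930412G12Rik, 157.1 kb from Rimbp2, had 1, 0 and 1 reads in wild type and 271, 227 and 228 in Chd5-/- at 3 h (adjusted p = 7.97e-05), and 3, 3 and 6 against 80, 172 and 91 at 48 h (adjusted p = 0.000947). Fzd10, a Wnt receptor gene 153.7 kb from Rimbp2, had 4, 3 and 2 reads in wild type and 794, 773 and 861 in Chd5-/- at 3 h (adjusted p = 0.00853). At 48 h Fzd10 had 2, 23 and 6 reads in wild type and 43, 652 and 43 in Chd5-/-, so that most of its Chd5-/- reads came from replicate 2 (adjusted p = 0.0751, and 0.0142 with the block). Stx2, the nearest tested gene on the other side of Rimbp2 at 31.1 kb, stood at 25.9 ± 0.646 CPM in Chd5-/- and 22.9 ± 1.37 in wild type at 3 h (adjusted p = 0.732). On the other side of Smim20, Sel1l3 was lower in Chd5-/- at 48 h, 58.3 ± 1.18 against 263 ± 39.3 CPM (adjusted p = 0.00522).

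The remaining calls lay near Lnx1 and Tubg2. Pdgfra, the receptor gene of oligodendrocyte precursors, lies 449.4 kb from Lnx1 and was higher in Chd5-/- at 48 h, 42 ± 18 against 7.11 ± 1.9 CPM (edgeR adjusted p = 0.0301). It did not pass when 1 library was left out from Chd5-/- at 3 h or from 48 h, other than replicate 2 of Chd5-/- there, with an adjusted p of up to 0.117. Ghdc, 384.9 kb from Tubg2, was higher at 3 h (18.1 ± 0.524 against 5.44 ± 1.4 CPM; adjusted p = 0.00139) and at 48 h (28.6 ± 2.75 against 9.07 ± 0.783 CPM; adjusted p = 0.0037). Cavin1 and Ifi35, 185.0 and 286.6 kb from Tubg2, had log2 differences of -2.52 ± 0.48 and -4.40 ± 1.04 at 3 h (adjusted p = 0.0111 and 0.0306). Those of Cavin1 were lost without replicate 1 or 2 of Chd5-/- (adjusted p = 0.0611 and 0.0631), and those of Ifi35 without any 1 Chd5-/- library or replicate 1 of wild type (up to 0.139), while Ghdc passed in every fit. No neighbour of Abracl, Shisa6, Itpripl2, Kctd4, Plxdc2 or Ptprt passed at either time. With the block within 48 h Txlnb, 165.6 kb from Abracl, passed as lower in Chd5-/- (adjusted p = 0.0361, against 0.736 without it) and Scfd2, 60.7 kb from Lnx1, as higher (0.0342, against 0.203). The nearest ones to Itpripl2, Coq7 at 17.7 kb and Syt17 at 36.9 kb, had adjusted p of 0.94 and 0.421 at 3 h, and Reps1, 32.6 kb from Abracl, had 0.665. Without the 3 libraries that stood apart Coq7 and Syt17 passed, higher in Chd5-/- (adjusted p = 0.000571 and 0.00201). In that fit 52.5% of all genes passed at 3 h, in either direction.

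**Figure D4:**
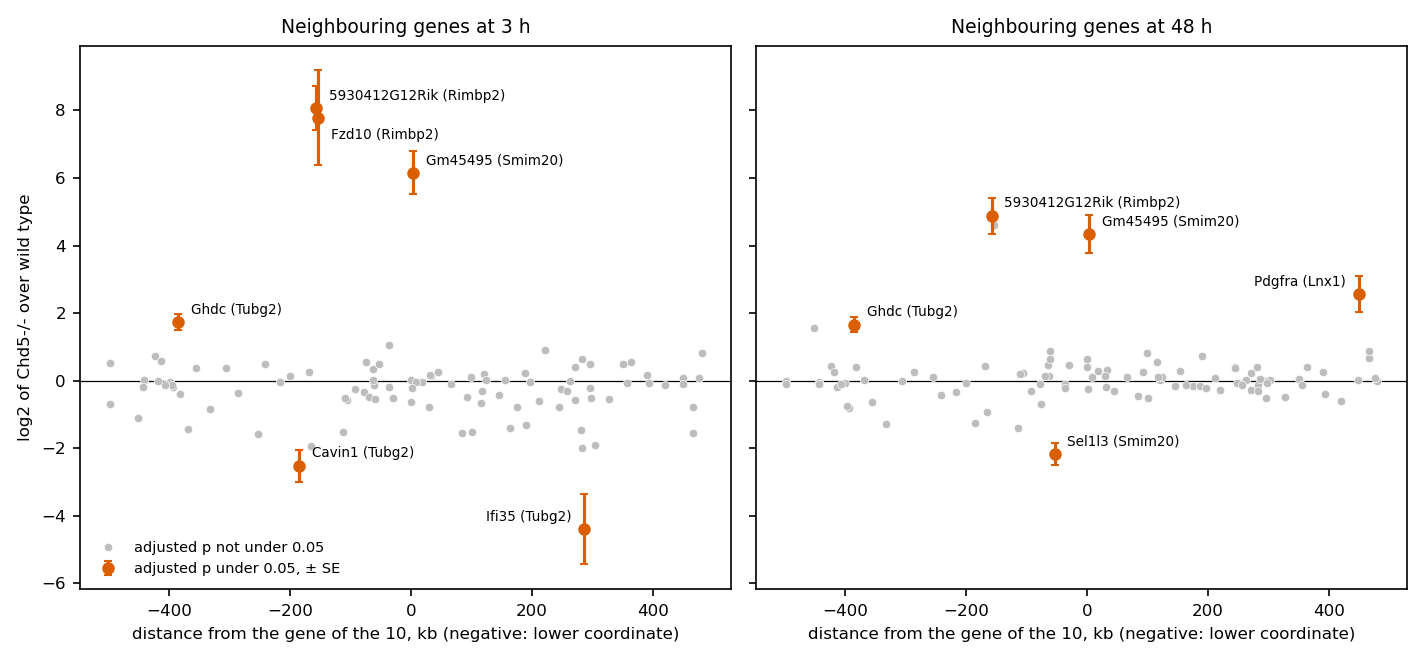
Log2 difference between Chd5-/- and wild type (y axis) of the 99 tested genes within 500 kb of the 10 genes, by distance in kb (x axis; 0 means overlapping); orange points passed at an adjusted p under 0.05 and carry their standard error and, in brackets, the gene they neighbour. Most points lie near 0, with 5930412G12Rik, Fzd10 and Gm45495 far above at 3 h.

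Genes related to the 10 by family or by function are given by list, beside the 6.71% of all genes that passed between genotypes at 3 h, 2.74% at 48 h and 8.82% at 48 h with the block. Of 16 tested paralogues, 1 was higher in Chd5-/- at 3 h and 2 at 48 h, and none was lower; with the block 3 were higher and 1 lower, Shisa9 (adjusted p = 0.0076, against 0.6 without it) and Lnx2 being added. Tspoap1, a RIM-binding protein gene like Rimbp2, had no reads in wild type and 0.464 ± 0.0904 CPM in Chd5-/- at 3 h (edgeR adjusted p = 0.0362). Shisa7, which like Shisa6 encodes an AMPA receptor auxiliary subunit, stood at 10.7 ± 2.17 against 2.92 ± 0.829 CPM at 48 h (adjusted p = 0.00842). Ptprk, of the same phosphatase family as Ptprt, stood at 23.9 ± 5.06 against 7.6 ± 3.26 CPM (adjusted p = 0.0402). Lnx2 was at 9.04 ± 1.34 against 19.6 ± 5.03 CPM and did not pass (adjusted p = 0.178). Lnx2 passed with the block within 48 h (adjusted p = 0.0243), in DESeq2 (0.0439), without replicate 1 of wild type at 3 h (0.0136) and without the 3 libraries that stood apart (8.74e-06), with log2 values of -1.10 to -1.19. Without those 3 libraries 47.2% of all genes passed at 48 h. The call of Tspoap1 was lost without any 1 library of 3 h and 3 of those of 48 h (adjusted p of up to 0.104), and that of Ptprk without replicate 1 or 3 of either genotype at 48 h or any of 5 libraries of 3 h (up to 0.153), while Shisa7 passed without any 1 library but not with the libraries of 48 h fitted alone (0.0568). The median difference of the paralogues was 0.30 at 3 h and -0.45 at 48 h on the log2 scale.

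Of 15 active zone genes, the setting of Rimbp2, 1 passed at 3 h (Tspoap1, higher) and 3 at 48 h. With the block Rims4 (adjusted p = 0.0264, against 0.112 without it) and the scaffold gene Pclo (0.0443, against 0.465) also passed as higher. Both passed without the 3 libraries that stood apart (1.27e-06 and 0.00108). Rims4 also passed in DESeq2 (0.0208) and without replicate 1 of wild type at 3 h (0.0143). The scaffold gene Rims1 was higher, 1.51 ± 0.211 against 0.107 ± 0.0828 CPM (edgeR adjusted p = 0.00955). The calcium channel gene Cacna1a was lower, 0.482 ± 0.303 against 8.15 ± 4.62 CPM (adjusted p = 0.0129), as was Rims3, 5.56 ± 1.39 against 11.3 ± 1 CPM (adjusted p = 0.0404, and 0.0679 with the block). The calls of Rims1 and Cacna1a each held without any 1 library but 2 (adjusted p of up to 0.0666 and 0.0579), both of them libraries of 48 h. The exceptions were replicates 1 and 3 of wild type for Rims1, and replicate 1 of wild type and replicate 3 of Chd5-/- for Cacna1a, whose log2 difference of -4.05 was -1.33 with the length offset (adjusted p = 0.995). Rims3 was lost without replicate 1 or 3 of either genotype at 48 h or any of 5 libraries of 3 h (up to 0.193). Among 13 tested AMPA receptor genes none passed at 3 h. At 48 h 1 was higher, Shisa7, and 1 lower, Cacng5, another auxiliary subunit, at 0.0643 ± 0.0631 against 3.47 ± 2.6 CPM (adjusted p = 0.0176, and up to 0.0837 without 1 of 5 libraries of 48 h, all but replicate 2 of wild type). The block added Shisa9, higher, and Cnih2, lower (adjusted p = 0.0243, against 0.459 without it), and Cacng5 was not tested in that fit. Of 12 genes of the gamma-tubulin complex, 1 passed at 3 h, Cdk5rap2, which activates the complex, at 274 ± 9 against 163 ± 5.8 CPM (adjusted p = 0.0388, and up to 0.158 without 1 library, any of Chd5-/- at 3 h among them), and none at 48 h. Among 20 genes of complex IV assembly, where Smim20 acts, 1 passed at 3 h, Coa5, at 264 ± 3.42 against 102 ± 14 CPM (adjusted p = 0.00468, and up to 0.0264 without 1 library), and none at 48 h, where Cox10 passed with the block (0.0447, against 0.313 without it). Of 7 genes of the NUMB and Notch group around Lnx1 none passed between genotypes at either time. Jag1, a Notch ligand gene, had the lowest adjusted p, 0.0837, for a difference of -1.76 at 48 h. It passed with the block within 48 h (adjusted p = 0.00622), with the block over all 12 libraries (0.0425) and in DESeq2 (0.005). Jag1 also passed without replicate 2 of Chd5-/- at 48 h (0.0377) and without replicate 1 of wild type at 3 h (0.0263). Without the 3 libraries that stood apart its adjusted p was 7.39e-12.

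Other genes met the pattern of the 10 with more reads. At 3 h the 5 named protein-coding genes with the highest CPM in Chd5-/- were Ddit4l, Ank3, Adgrv1, Diras2 and Fzd10, at 306, 96.8, 67.5, 59.8 and 47.4 CPM. At 48 h they were Gpr17, Ank3, Irx1, Fzd10 and Ifit3, at 34.5, 19.8, 18.9, 16.3 and 16.2 CPM, of which Fzd10 and Ifit3 had SDs of 23.6 and 23.2 CPM, larger than their means. Of the 75 genes of 3 h, 43 were still over 5 CPM in Chd5-/- at 48 h and 33 were over 1 CPM in wild type at that time, as Rimbp2 was. The opposite pattern, over 5 CPM in wild type and under 1 CPM in Chd5-/-, was met by 74 genes at 3 h and 38 at 48 h.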

How the data were processed

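The members and the lists of related genes were chosen with earlier results of these data known. Per the labels' protocols, RNA came from a Trizol extraction and the library kit was TruSeq Stranded mRNA. Each library has a deposited Salmon table, per the submitters' processing notes, which holds estimated counts (NumReads), TPM and lengths for 140658 transcripts, per the file headers; its version, index and strand setting: not given in the sources used here. The authors' deposited TPM values were used only for levels between genes, over transcripts of at least 500 bases, since estimated reads on shorter ones weigh heavily. Of the transcripts, 140137 matched GENCODE M21 (GRCm38) and 521, with 0.135% to 0.181% of a library's reads, did not and were left out. The deposited estimated counts were summed per gene, rounded to whole numbers and tested in edgeR 4.0.16 (R 4.3.3): TMM scaling, filterByExpr with a minimum count of 10 and a total of 15, glmQLFit on all 12 libraries with 1 mean per group, and an adjusted p of 0.05 as threshold. The test was tried on simulated data first. The genotype and time comparisons were fitted over all genes, and the tests were used for other genes than the 10. SEs are the log2 change divided by the square root of F. A group with 0 reads was given a floor of 3 counts, and other ratios of the 10 genes an exact 95% interval for 2 Poisson counts (Clopper-Pearson on the share of reads). Folds above the floor leave out the counting error of the higher group. The text names all 10 genes, their nearest tested neighbours or those that passed, the most similar gene by Pearson's r (that of Kctd4 is not reported here), the 5 genes with the most reads meeting the pattern, and up to 4 genes a list by p; neighbours beyond the nearest, Tubg1 and genes of interest within a list were chosen after their values were seen. Replicate numbers come from the labels. Deviations from the group mean correlated between same-numbered libraries of the genotypes at 48 h (r = 0.56, 0.74 and 0.56) but hardly at 3 h (0.15, 0.08 and 0.05) or between times (-0.01 to 0.02), so a block by number was added for 48 h alone. Replicate 2 stood apart in both genotypes at 48 h, and deviations from a mean that includes it correlate for the other numbers too. These correlations therefore do not show that replicates 1 and 3 are pairs across genotypes, which was not tested. Other settings were another scaling, filter and tool (DESeq2 1.42.0, limma 3.58.1), coding transcripts alone, a length offset, fewer libraries and the block. Promoter windows are from RefSeq.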

Additional observations from a re-analysis of the deposited data

Results flagged for a closer look

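Shisa6 moved in opposite directions over time. Every Chd5-/- library was lower at 48 h than every one at 3 h, and every wild-type library was higher at 48 h than every one at 3 h, on 1 read at 3 h and 12 at 48 h. The change in Chd5-/- minus that in wild type was -7.08 ± 1.14 on the log2 scale (SE), an estimate that rests on the 1 wild-type read and the prior count of the fit, and a difference that was not tested because the genes were chosen on the genotype contrasts it is made of.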

How the results depend on the processing

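Of the values of the 10 genes, 2 changed sign, both with the offset for effective length: Rimbp2 over time in Chd5-/- (-0.06 against 0.42) and Shisa6 between genotypes at 48 h (-0.30 against 3.36). Of 26 calls between genotypes given for other genes, 14 held without any 1 library and 12 were lost without some. Among genes not called, Tubg1 changed sign at 3 h (-0.51, with -0.72 to 0.05 without any 1 library and 0.05 without the 3). It also did at 48 h (0.46, with -0.02 to 0.83 without any 1 library), though not without the 3 (0.37). Coq7 did so at 3 h, where -0.04 became 0.06 without the filter, 0.05 in limma-voom, 0.35 without the 3 and -0.20 to 0.35 without any 1 library. Over all genes, 3544 passed in time in Chd5-/-, 7836 with those libraries alone, 13037 without the 3 libraries and 1708 to 7280 without any 1. In wild type 3668 passed over time, 2308 with coding transcripts only, 0 with those libraries alone, 12543 without the 3 and 1464 to 5419 without any 1. Between genotypes at 3 h 1077 passed, 2091 in DESeq2, 8662 without the 3 and 419 to 1636 without any 1. At 48 h 440 passed, 915 in DESeq2, 266 with the length offset, 263 with those libraries alone, 1330 with the block within 48 h (an alternative chosen after seeing the data), 7791 without the 3 and 184 to 1454 without any 1. The replicate block over all 12 libraries, where deviations of same-numbered libraries correlated at 48 h alone, gave 3770 and 3181 genes over time in Chd5-/- and wild type and 907 and 408 between genotypes at 3 h and 48 h. The cause of these shifts was not tested. Wild-type levels rest on 0 to 161 reads a group, so folds against them are bounds or ratios with wide counting intervals.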
